A study of Homo sapiens with 18 samples.

Results

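CD44, CD24, PROM1, ALDH1A1, ALDH1A3, ALDH3A1 and BMI1, 7 genes of the 58302 in the deposited tables, are often used to mark stem-like states of epithelial cancer cells. They were taken by gene name from the tables of 3 lung cancer cell lines. CD44 was selected on its measured FPKM, which had been seen higher after SYK knockdown in all 3 cell lines, so its shSYK and nc levels are given as a description without a test. The other 6 genes were chosen by name as companions of CD44, and the gene lists used below were chosen by name too. Earlier results of these data were known at that time, so the choice was not blind to the values tested.

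Messenger RNA was sequenced from EBC-1 cells, which carry a MET amplification, and from PC-9 and HCC827 cells, which carry an EGFR exon 19 deletion. In each cell line, cells with a stable lentiviral shRNA against the kinase SYK (shSYK) were set against cells carrying a negative control (nc). Each of the 6 groups had 3 libraries, 18 in all. A single shRNA clone was used, so effects of SYK loss and of this hairpin cannot be told apart. Nothing in the labels says that the libraries of a group came from separate cultures, and the p-values measure the spread between these libraries only. Levels are FPKM as the authors deposited them, fragments scaled to gene length and to a total per library. That total is not defined in the sources used here. It was 0.883 (PC-9 nc replicate 1) to 1.07 (EBC-1 shSYK replicate 3) times the reads recovered on genes. In EBC-1 it was 0.969 to 1.01 times for nc and 1.03 to 1.07 times for shSYK.

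CD44 is a cell surface receptor for hyaluronan, and CD24 is a small glycoprotein anchored to the outer face of the cell membrane. The balance of CD44 and CD24 is widely used to describe stem-like and mesenchymal states in breast and other carcinomas. PROM1 encodes CD133, a membrane glycoprotein used as a stem cell antigen. ALDH1A1 and ALDH1A3 oxidise retinaldehyde to retinoic acid, and together with ALDH3A1, which oxidises aldehydes formed from lipids, they are aldehyde dehydrogenases whose activity is used to sort stem-like cells in lung cancer. BMI1 is a subunit of Polycomb repressive complex 1 (PRC1), which silences genes such as the CDKN2A locus and is needed for self-renewal in several tissues.

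Short promoter stretches are shown for CD44, which lay higher in shSYK libraries of all 3 cell lines, and ALDH1A3, which had the largest fall. The study examined the transcription factor Sp1 and the AP-1 family member FRA1 alongside SYK, so a GC box bound by Sp1 (GGGCGG on either strand) and an AP-1 site (TGANTCA) were searched for in the 250 bases before each RefSeq start site (GRCh38.p14). Capitals mark the GC box matches, and overlapping matches run together.
CD44, chr11:35138998-35139027, plus strand: acgGGGCGGgggcagaggggcCCGCCCggg
ALDH1A3, chr15:100879667-100879696, plus strand: gcagGGGCGGcGGGCGGGGCGGggtgaggc
The CD44 stretch lay 173 to 144 bases before the RefSeq start, in a 5′ UTR exon of 1 longer GENCODE v44 transcript, and the ALDH1A3 stretch lay 164 to 135 bases before it, in an intron of 1 longer transcript. The full 250 bases held 2 GC box matches for CD44 and 6 for ALDH1A3, and no AP-1 match for either gene. RefSeq promoters were found for 6 of the 7 genes, with 12 start sites, of which 7 had a GC box and 1, a start site of PROM1, had an AP-1 match. Of 35116 RefSeq promoter stretches of the same length, 42.6% held a GC box and 6.57% an AP-1 match. A match alone does not show binding, and binding at these stretches was not tested.

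Between 7920099 and 15729103 reads per library lay on genes, as recovered from the FPKM values. The targeted gene SYK fell in all 3 cell lines by limma on log2(FPKM + 1), to 52.3% of nc for EBC-1 (adjusted p = 0.000271), to 32.1% for PC-9 (adjusted p = 0.00733) and to 32.9% for HCC827 (adjusted p = 0.000197). The PC-9 nc replicate 1 library stood apart from the other PC-9 nc libraries, so PC-9 values are also given without it where they moved. The epithelial markers EPCAM, KRT8, KRT18, KRT19 and CDH1 were expressed in every cell line, with EPCAM at a mean of 64.0 FPKM in EBC-1 nc, 99.1 in PC-9 nc and 101.4 in HCC827 nc. The 9 markers of blood, endothelial and connective tissue cells summed to 1.97 to 23.0 FPKM per nc library and 2.09 to 13.3 per shSYK library. Among them PTPRC, CD3E, COL1A2 and COL3A1 were at or near 0, while PECAM1 fell in PC-9 from 13.4 to 4.98 FPKM and CD79A rose in HCC827 from 1.18 to 4.24 FPKM, and the part of these changes in the results was not tested. The libraries are bulk RNA, so a change in each cell and a change in the share of cells carrying a transcript cannot be told apart.

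The control cells differed widely in these genes. Levels between cell lines were compared after rescaling the FPKM of each library to the same sum (TPM), because the 3 tables were deposited separately, and a cell line and the preparation of its libraries cannot be told apart. In nc libraries CD44 was lowest in EBC-1, at 29.4 ± 1.34 TPM (SD, n = 3). HCC827 had 61.1 ± 3.98 TPM and PC-9 had 271.3 ± 31.6 TPM. All 3 steps differed by limma on log2(TPM + 1), with adjusted p of 2.3e-07 between EBC-1 and HCC827, 4.97e-11 between PC-9 and HCC827 and 3.56e-13 between EBC-1 and PC-9. CD24 followed another order, with 3.95 ± 0.942 TPM for EBC-1, 185.1 ± 49.5 TPM for PC-9 and 200 ± 28.5 TPM for HCC827. EBC-1 lay 46.9-fold below PC-9 (adjusted p = 1.4e-12), whereas PC-9 and HCC827 were neighbours that did not differ beyond their spread (log2 difference -0.14, SE 0.19, adjusted p = 0.55), although with FPKM as deposited the difference was -0.31 with an adjusted p of 0.0479. The same threshold was passed by 68.9% of all tested genes between EBC-1 and PC-9, by 69.4% between EBC-1 and HCC827 and by 62.4% between PC-9 and HCC827.

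Of the aldehyde dehydrogenases among the members, ALDH1A3 was the one expressed in every cell line, at 643 ± 55.9 TPM in PC-9 nc, 308.9 ± 43.5 in EBC-1 nc and 59.5 ± 4.68 in HCC827 nc. The 3 levels differed from one another, with adjusted p of 3.19e-07, 2.61e-11 and 3.53e-13 for EBC-1 against PC-9, EBC-1 against HCC827 and PC-9 against HCC827. ALDH3A1 was almost restricted to PC-9, with 209.8 ± 37.1 TPM in nc libraries, against 0.706 ± 0.390 in EBC-1 nc and 0.0874 ± 0.0993 in HCC827 nc. That corresponds to 4 to 14 reads per nc library in EBC-1 and 0 to 3 in HCC827, where 3 reads were taken as the floor of detection. ALDH1A1 had 0 to 19 reads and PROM1 0 to 21 reads in any of the 18 libraries, both with their highest read number in EBC-1, so neither reached a mean of 1 FPKM in any cell line and no change could be tested at this depth. BMI1 was the evenest, at 13.4 ± 1.37 TPM in EBC-1 nc, 14.0 ± 7.54 in PC-9 nc and 12.3 ± 0.986 in HCC827 nc, and no pair of cell lines differed (adjusted p of 0.736 to 0.941). Without PC-9 nc replicate 1, BMI1 lay 0.48 higher in PC-9 than in HCC827 on the log2 scale (adjusted p = 0.0238). Without PC-9 nc replicate 2, the difference was -0.33 (adjusted p = 0.25).

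In each cell line, all 3 shSYK libraries had more CD44 than all 3 nc libraries. In EBC-1 the nc libraries had 8.18, 8.17 and 7.83 FPKM and the shSYK libraries 20.8, 20.2 and 26.7 FPKM. In PC-9 they had 81.6, 82.9 and 82.6 FPKM against 117.4, 127.2 and 128.6 FPKM. In HCC827 they had 21.4, 21.6 and 20.2 FPKM against 25.7, 27.9 and 25.2 FPKM. The ratio of the group means was thus largest in EBC-1, where nc levels were lowest, at 2.80. It was 1.51 for PC-9 and 1.25 for HCC827. On the log2(FPKM + 1) scale the differences were 1.37 (SE 0.11), 0.59 (SE 0.10) and 0.31 (SE 0.06). Each was measured on 929 or more reads per library. Such a separation with shSYK above nc was seen for 29.7% of all tested EBC-1 genes, 11.4% of those of PC-9 and 24.7% of those of HCC827, and since CD44 was chosen for this pattern nothing is read from it. Among protein-coding genes with at least 1 FPKM, CD44 ranked 4881 in EBC-1 nc and 2094 in EBC-1 shSYK. The ranks were 533 and 323 for PC-9, and 2357 and 1789 for HCC827. The values are per gene and do not separate the standard and variant isoforms of CD44. The antisense gene CD44-AS1 had 0 to 18 reads per library, and as the strand setting of the counting is not given in the sources used here, reads of the antisense and of CD44 may not have been told apart.

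**Figure D1:**
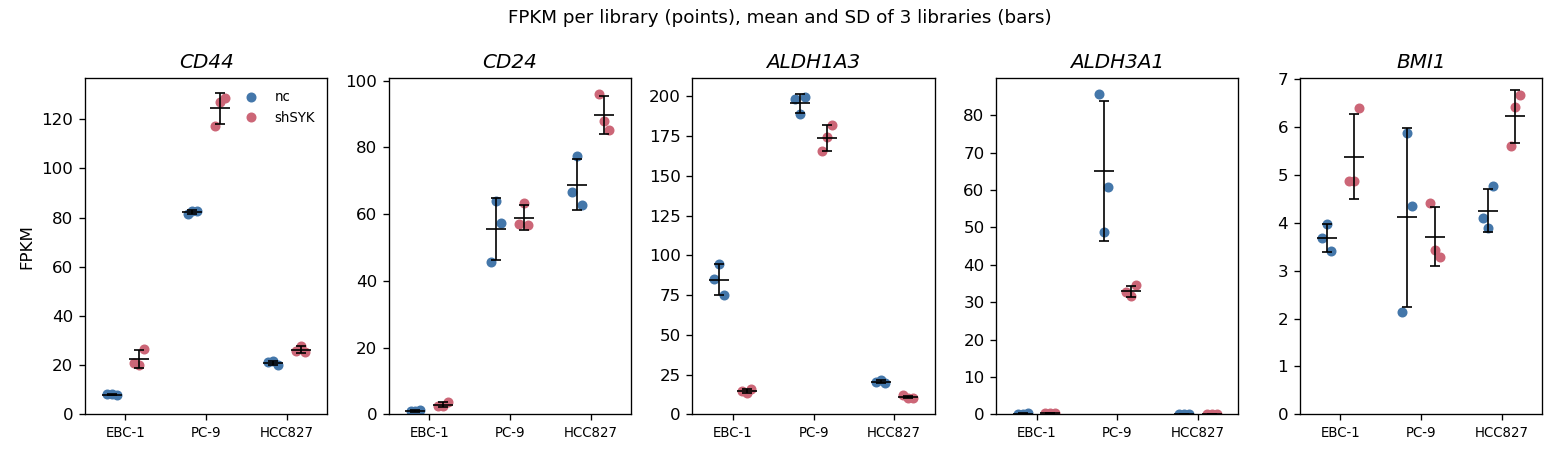
FPKM of the 5 members expressed in at least 1 cell line (vertical axes, linear, a scale for each gene) by cell line (horizontal axes), with nc libraries in blue, shSYK libraries in red and the mean ± SD of 3 libraries in black. CD44 points of shSYK lie above those of nc in all 3 cell lines, ALDH1A3 points of shSYK lie below them, and ALDH3A1 exceeds 1 FPKM in PC-9 alone.

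CD24 rose together with CD44 in EBC-1 and HCC827 and showed no detectable change in PC-9. In EBC-1 it went from 0.867, 0.997 and 1.40 FPKM in nc to 2.61, 2.48 and 3.66 FPKM in shSYK, and the groups did not overlap. The means of 1.09 ± 0.276 and 2.92 ± 0.643 FPKM (SD, n = 3) gave a ratio of 2.69 and a log2 difference of 0.90 (SE 0.15, limma adjusted p = 0.00292), on 37 to 154 reads per library, so CD24 stayed low in EBC-1 in both groups. In HCC827 it went from 66.5, 77.3 and 62.6 FPKM to 95.9, 88.0 and 85.2 FPKM, a ratio of 1.30 (log2 difference 0.38, SE 0.09, adjusted p = 0.0123). In PC-9 nc and shSYK libraries overlapped, with 45.6, 63.8 and 57.2 FPKM against 56.9, 63.2 and 56.6 FPKM (log2 difference 0.10, SE 0.14, adjusted p = 0.827), and without nc replicate 1 the difference was -0.04. The pseudogenes CD24P1 and CD24P2 had no reads in any library.

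The ratio of CD44 to CD24 FPKM did not overlap between the cell lines, whichever the group. In EBC-1 it was 9.44, 8.2 and 5.61 in the nc libraries and 7.95, 8.12 and 7.31 in the shSYK libraries, within the nc range. In HCC827 it was 0.321, 0.28 and 0.322 in nc and 0.268, 0.318 and 0.296 in shSYK, again overlapping. In PC-9, where CD24 was level, the ratio was 1.79, 1.3 and 1.44 in nc and 2.06, 2.01 and 2.27 in shSYK, and the groups did not overlap. As CD44 was chosen for its change, these ratios were not tested.

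**Figure D2:**
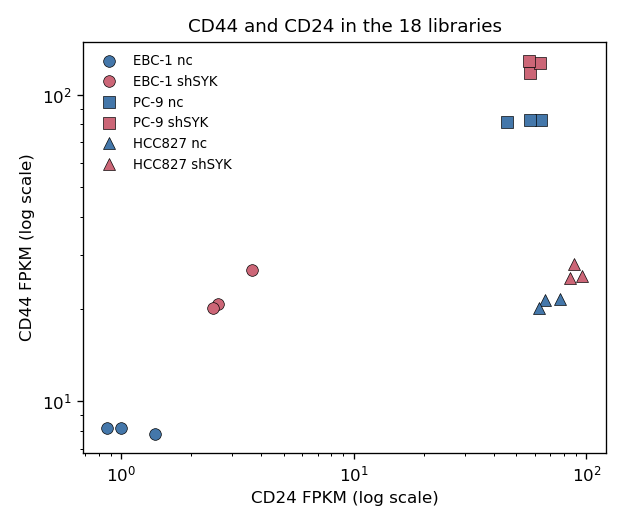
CD44 FPKM (vertical, log scale) against CD24 FPKM (horizontal, log scale) in the 18 libraries, with the shape giving the cell line, blue for nc and red for shSYK. EBC-1 and HCC827 libraries shift up and to the right with SYK knockdown, and PC-9 libraries shift up alone.

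ALDH1A3 fell in EBC-1 and HCC827. In EBC-1 the nc libraries had 84.9, 94.4 and 74.8 FPKM and the shSYK libraries 14.8, 13.1 and 16.1 FPKM. The mean dropped from 84.7 ± 9.84 to 14.7 ± 1.49 FPKM (SD, n = 3), that is to 17.3% of nc (log2 difference -2.45, SE 0.11, limma adjusted p = 2.43e-05), and its rank among protein-coding genes with at least 1 FPKM went from 470 to 3108. In HCC827 the nc libraries had 20.4, 21.5 and 19.6 FPKM and the shSYK libraries 11.9, 10.3 and 10.6 FPKM. There the mean went to 53.2% of nc (log2 difference -0.85, SE 0.07, adjusted p = 0.000257). In PC-9, the line with the highest level, nc libraries had 198.4, 188.7 and 199.7 FPKM and shSYK libraries 165.8, 174.3 and 182 FPKM, and although the groups did not overlap the difference of -0.17 (SE 0.10) did not pass the test (adjusted p = 0.502). All shSYK libraries lay below all nc libraries for 27.2% of tested genes of EBC-1, 12.3% of PC-9 and 27.6% of HCC827.

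ALDH3A1 could be tested in PC-9 alone. Its nc libraries had 85.6, 48.7 and 60.9 FPKM and its shSYK libraries 32.7, 31.6 and 34.5 FPKM, so that the groups did not overlap and the shSYK mean was 50.6% of nc. The nc libraries were spread widely (SD 18.8 FPKM against 1.49 FPKM in shSYK), and the log2 difference of -0.93 (SE 0.20) missed the threshold with an adjusted p of 0.0631. Without PC-9 nc replicate 1, the highest of the nc libraries, it was -0.71 with an adjusted p of 0.0176. With the libraries rescaled to TPM it was -0.95 with an adjusted p of 0.0124. In these 2 fits 621 and 490 PC-9 genes were called, in place of 253. The ALDH3A1 difference stayed uncalled under 8 of the 13 alternatives run, and its adjusted p reached 0.27. In EBC-1 ALDH3A1 had 4 to 14 reads per nc library and 18 to 24 per shSYK library.

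BMI1 rose in EBC-1 and HCC827. In EBC-1 the nc libraries had 3.68, 3.97 and 3.41 FPKM and the shSYK libraries 4.88, 4.87 and 6.40 FPKM, a ratio of 1.46 (log2 difference 0.44, SE 0.11, limma adjusted p = 0.0149). With the trends on GC content and gene length removed, this difference was 0.18 with an adjusted p of 0.115, and without nc replicate 3 the adjusted p was 0.0536. In HCC827 BMI1 went from 4.10, 3.90 and 4.77 FPKM to 5.61, 6.41 and 6.67 FPKM, also a ratio of 1.46 (log2 difference 0.46, SE 0.09, adjusted p = 0.00639), and it passed under every alternative run. In PC-9 the nc libraries were spread from 2.15 to 5.87 FPKM and took in all 3 shSYK libraries (3.29 to 4.41 FPKM, log2 difference -0.06, SE 0.27, adjusted p = 0.956). The neighbouring gene COMMD3, from which transcripts can read through into BMI1, rose in HCC827 from 2.37 ± 0.0862 to 3.50 ± 0.472 FPKM (adjusted p = 0.0108) and was not called in EBC-1 or PC-9. The readthrough gene COMMD3-BMI1 had no reads in any library, and how reads on its shared exons were assigned is not given in the sources used here.

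In all, of the 6 members other than CD44, EBC-1 and HCC827 each had 3 that passed the filter of a mean of 1 FPKM, and in both cell lines CD24 and BMI1 rose and ALDH1A3 fell. In PC-9, 4 passed the filter and none was called by limma. The share of all tested genes called in either direction was 44.7% for EBC-1, 2.09% for PC-9 and 38% for HCC827. PROM1 and ALDH1A1 lay under the filter everywhere, and ALDH3A1 in EBC-1 and HCC827. At an unadjusted p under 0.05, limma gave 1 of the 4 in PC-9, ALDH3A1, and voom on the recovered reads called the same gene at the adjusted threshold. Of all 12089 tested PC-9 genes, 1881 had an unadjusted p under 0.05 by limma, and voom called 480.

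**Figure D3:**
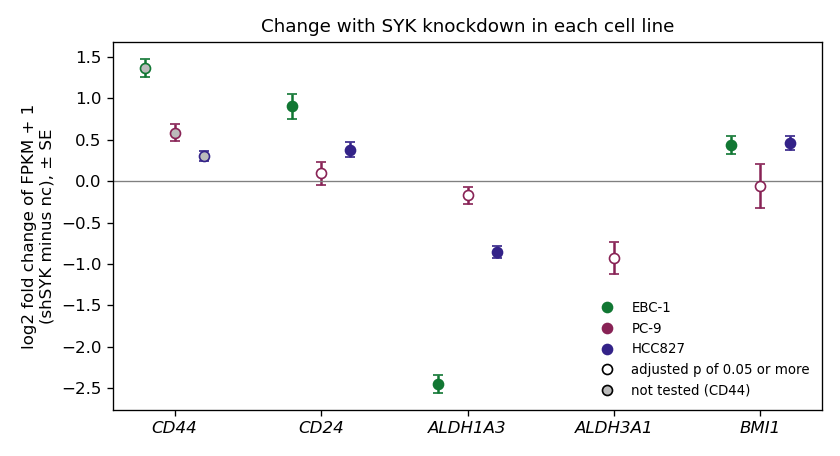
Difference between shSYK and nc on the log2(FPKM + 1) scale (vertical axis, fitted value ± SE, 3 libraries per group) for each member that passed the filter (horizontal axis), with a colour for each cell line. Filled points were called, open points had an adjusted p of 0.05 or more, and grey points (CD44) were not tested. ALDH1A3 in EBC-1 lies lowest at -2.45 and CD44 in EBC-1 highest at 1.37.

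Whether the response differed between cell lines was tested on the difference of the shSYK effects in a fit of all 18 libraries, for the members other than CD44. ALDH1A3 differed in all 3 comparisons. Its effect in EBC-1 was lower than in PC-9 (difference -2.28, SE 0.13, adjusted p = 1.49e-08) and lower than in HCC827 (difference -1.60, SE 0.13, adjusted p = 4.23e-07), and its effect in PC-9 lay above that in HCC827 (difference 0.69, SE 0.13, adjusted p = 0.00275). The CD24 effect was larger in EBC-1 than in PC-9 (difference 0.81, SE 0.19, adjusted p = 0.00701), while EBC-1 and HCC827 did not pass the test (difference 0.52, SE 0.19, adjusted p = 0.0602). That difference was 0.90 with TPM (adjusted p = 0.0289) and 0.97 with a pseudocount of 0.1 (adjusted p = 0.00897). ALDH3A1 passed the filter within a cell line in PC-9 alone. Its differences were fitted but set aside, as its levels in EBC-1 and HCC827 lay under 1 FPKM. No BMI1 comparison passed with all libraries (adjusted p of 0.235 to 0.97). Without PC-9 nc replicate 1 the BMI1 effect in PC-9 lay below those of EBC-1 and HCC827. The differences were then 0.81 for EBC-1 minus PC-9 (adjusted p = 0.00331) and -0.83 for PC-9 minus HCC827 (adjusted p = 0.00649). Each of them passed under this alternative alone, 1 of 21. With 1 library left out, they ranged from 0.25 to 0.81 and from -0.83 to -0.27. With all libraries, differences in the shSYK effect passed for 19.8% of all genes between EBC-1 and PC-9, 21.8% between EBC-1 and HCC827 and 7.5% between PC-9 and HCC827.

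ALDH1A3 makes retinoic acid, and most of the tested genes that supply, bind, sense or clear retinoic acid fell with SYK knockdown in EBC-1 and HCC827. Of 14 pathway genes, 8 passed the filter in EBC-1, of which 7 fell and none rose, with a median log2 difference of -0.76 against 0.01 over all tested genes. In HCC827, 8 passed and 8 fell, with a median of -0.72 against -0.01. In PC-9, 9 passed and 1 fell, with a median of -0.30, and 0 fell without nc replicate 3 or any single shSYK library. With 1 library left out, 4 to 7 fell in EBC-1, the 4 without nc replicate 1, and 6 to 8 in HCC827. Over all genes, 21.6% were called lower for EBC-1, 20.7% for HCC827 and 1.41% for PC-9. CYP26B1, a cytochrome P450 that breaks down retinoic acid, fell most in EBC-1, from 2.45 ± 0.43 to 0.177 ± 0.0141 FPKM (log2 difference -1.55, adjusted p = 0.000218). Its relative CYP26A1 fell most in HCC827, from 3.03 ± 0.28 to 0.824 ± 0.271 FPKM (-1.15, adjusted p = 0.000758). Both passed the filter through their nc libraries, as their shSYK means there lay under 1 FPKM. DHRS3, which returns retinaldehyde to retinol, fell in EBC-1 from 132.7 ± 8.33 to 48.8 ± 8.55 FPKM (adjusted p = 0.000291) and in HCC827 from 26.7 ± 3.21 to 12.3 ± 1.19 FPKM (adjusted p = 0.000444). The nuclear receptor RXRA was the gene called in PC-9, from 25.6 ± 5.54 to 13.6 ± 1.10 FPKM (adjusted p = 0.0484). The retinoic acid receptor RARA was the tested gene of EBC-1 that was not called, at 17.9 ± 2.06 and 18.8 ± 1.74 FPKM. RARB, under the filter, had 0 to 12 reads per library in EBC-1 with all shSYK libraries above all nc libraries. These transcripts are richer in G and C than most, with a median GC content of 56% against 48.7% over expressed genes, and log2 differences correlated with GC content across genes (Pearson r = -0.464 for EBC-1, -0.263 for PC-9 and -0.319 for HCC827, as a description). With the trends on GC content and length removed, 6 pathway genes were lower in EBC-1 and 1 higher, 2 were lower in PC-9 and 6 in HCC827. Genes called in these fits numbered 5312 in EBC-1 (5562 in the main fit), 978 in PC-9 (253) and 3630 in HCC827 (4554). The shares called lower in these fits are not given here, so the counts have no matching background. ALDH1A3 itself kept log2 differences of -2.46 in EBC-1 and -0.86 in HCC827 with the same trends removed.

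**Figure D4:**
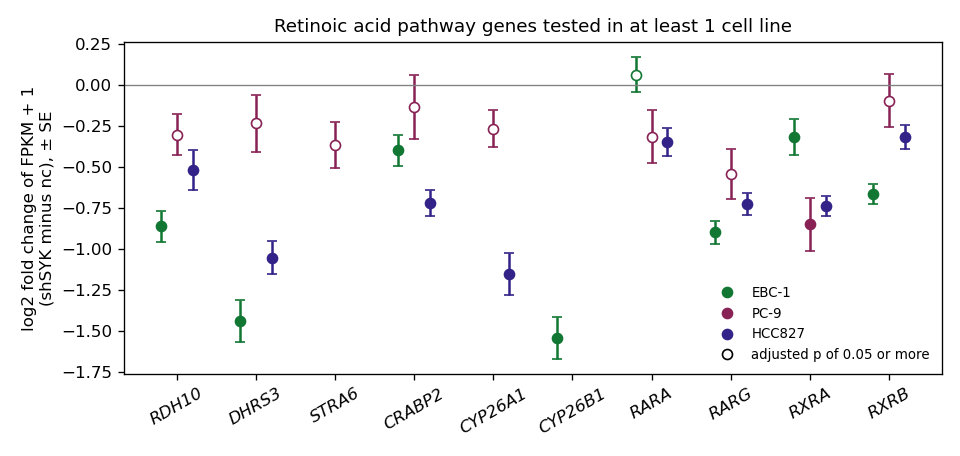
Difference between shSYK and nc on the log2(FPKM + 1) scale (vertical axis, fitted value ± SE, 3 libraries per group) for the retinoic acid pathway genes that passed the filter in at least 1 cell line (horizontal axis), with a colour for each cell line and filled points for called genes. Filled points lie below 0 throughout, and RARA in EBC-1 is the one point above it.

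Other aldehyde dehydrogenases moved in both directions. Of 16 further family members, 11 passed the filter in EBC-1, with 1 higher and 6 lower, 11 in HCC827, with 2 higher and 5 lower, and 13 in PC-9, with none called. Over all genes, 23.1% were called higher and 21.6% lower for EBC-1, and 17.2% and 20.7% for HCC827. ALDH3B1, which acts on lipid-derived aldehydes, had the largest fall on the log2(FPKM + 1) scale in both EBC-1, from 27.1 ± 1.89 to 14.8 ± 1.10 FPKM (adjusted p = 0.000431), and HCC827, from 35.9 ± 3.16 to 21.1 ± 1.495 FPKM (adjusted p = 0.000705). By the ratio of means, ALDH3B2 and ALDH4A1 fell further in EBC-1, to 33.8% and 50.8% of nc against 54.8% for ALDH3B1. ALDH3B2 passed the filter through its nc libraries, with a shSYK mean of 0.630 FPKM. ALDH18A1, an enzyme of proline synthesis, rose in EBC-1 from 27.2 ± 1.56 to 35.1 ± 1.56 FPKM (adjusted p = 0.00575). ALDH7A1, an enzyme of lysine breakdown, rose in HCC827 from 1.71 ± 0.207 to 3.01 ± 0.276 FPKM (adjusted p = 0.00393). The 5 lower in HCC827 became 2 without nc replicate 3 and 3 without nc replicate 1 or 2 or shSYK replicate 2 or 3.

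Among 22 genes of hyaluronan metabolism and partners of CD44, 16 passed the filter in EBC-1, with 8 higher and 1 lower. In HCC827, 13 passed, with 5 higher and 4 lower, and in PC-9 17 passed and none was called. Of all genes, 23.1% were called higher and 21.6% lower for EBC-1, and 17.2% and 20.7% for HCC827. SPP1, which encodes osteopontin, a secreted ligand of CD44, rose most in EBC-1, from 3.11 ± 0.558 to 7.27 ± 0.994 FPKM (log2 difference 1.01, adjusted p = 0.00106). The same gene fell most in HCC827, from 5.29 ± 1.16 to 0.796 ± 0.118 FPKM (log2 difference -1.79, adjusted p = 0.000251). There it passed the filter through its nc libraries. HAS1, a hyaluronan synthase, was the gene that fell in EBC-1, from 3.08 ± 0.309 to 2.07 ± 0.306 FPKM (adjusted p = 0.0164), and it was not called without nc replicate 1 or 3 or shSYK replicate 1 or 3. The synthase HAS3 was called higher in EBC-1, from 6.16 ± 0.685 to 8.185 ± 0.957 FPKM (adjusted p = 0.0267). HAS2, under the filter there, had all shSYK libraries above all nc libraries. HMMR, a hyaluronan receptor that also acts at the mitotic spindle, rose most in HCC827, from 6.04 ± 0.674 to 9.16 ± 0.417 FPKM (adjusted p = 0.0028).

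Other PRC1 subunits moved in both directions. Of 18, 17 passed the filter in EBC-1, with 3 higher and 7 lower, 16 in HCC827, with 1 higher and 5 lower, and 17 in PC-9, with none called. The shares over all genes were 23.1% higher and 21.6% lower for EBC-1, and 17.2% and 20.7% for HCC827. PCGF5, a ring finger subunit of the same family as BMI1, rose most in EBC-1, from 2.96 ± 0.235 to 5.15 ± 0.384 FPKM (adjusted p = 0.00117). CBX8 fell most in HCC827, from 4.38 ± 0.287 to 2.84 ± 0.454 FPKM (adjusted p = 0.00818), and RYBP rose there, from 3.32 ± 0.368 to 4.44 ± 0.0906 FPKM (adjusted p = 0.0137). With the trends on GC content and length removed, 0 subunits were higher in HCC827 in place of 1 (RYBP) and 1 was lower in place of 5. That fit called 3630 HCC827 genes in place of 4554. Without nc replicate 3 or shSYK replicate 2 or 3, 3 subunits were lower in HCC827.

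Of 21 other genes used as stem-like markers, 12 passed the filter in EBC-1, with 5 higher and 3 lower, 11 in HCC827, with 5 higher and 2 lower, and 10 in PC-9, with 1 higher. Among all genes, 23.1% were higher and 21.6% lower for EBC-1, against 17.2% and 20.7% for HCC827. NGFR, the low-affinity neurotrophin receptor, fell most in EBC-1, from 14.9 ± 1.70 to 3.57 ± 0.818 FPKM (log2 difference -1.81, adjusted p = 0.000202), and ENG, a co-receptor of TGF-beta, rose most, from 25.5 ± 4.37 to 37.4 ± 4.49 FPKM (adjusted p = 0.0171). In HCC827 the transcription factor SOX2 fell most, from 22.3 ± 4.36 to 8.63 ± 1.94 FPKM (log2 difference -1.28, adjusted p = 0.00171), and SOX9 rose most, from 0.710 ± 0.271 to 1.72 ± 0.374 FPKM (adjusted p = 0.0126). SOX9 passed the filter there through its shSYK libraries. The gene that rose in PC-9 was the efflux pump ABCG2, from 1.28 ± 0.278 to 3.46 ± 0.122 FPKM (log2 difference 0.97, adjusted p = 0.0132), on a background of 0.678% of all genes called higher there. Without PC-9 nc replicate 1, 3 of these markers were higher in PC-9, but 621 genes were then called there in place of 253. The share called higher in that fit is not given here, so the count has no matching background. Without nc replicate 3 or any shSYK library of PC-9, 0 of these markers were higher, with 7 to 24 genes called.

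The genes whose levels followed CD44 most closely were found over the 18 libraries after the mean of each cell line was subtracted, among 10029 genes with a mean of at least 1 FPKM in each cell line. NOLC1, a nucleolar protein, had the highest Pearson correlation, with r = 0.983. The chaperone DNAJA1 followed with 0.979, the complement inhibitor CD59 with 0.970, the translation initiation factor subunit EIF3M with 0.964 and thioredoxin (TXN) with 0.963. The 18 points fall into nc and shSYK libraries, so any gene that differed between them in all 3 cell lines correlates with CD44. By the same measure CD24 had r = 0.868, BMI1 0.489 and ALDH1A3 -0.906.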

How the data were processed

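RNA from nc and shSYK cells of EBC-1, PC-9 and HCC827 was extracted with TRIzol and sequenced on an Illumina HiSeq system, per the study's methods, with alignment to hg38. The submitters' processing notes name CASAVA and HISAT2. The program that counted reads, its strand setting and the annotation are not given in the sources used here. The authors deposited FPKM of 58302 genes, 1 table per cell line. Multiplied by gene length, 100% of FPKM values above 0 were whole multiples (tolerance 0.01) of a constant per library, from which read numbers were recovered. They cover counting error only.

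The members and gene lists were chosen with earlier results of these data known. Tests used limma 3.58.1 in R 4.3.3 on log2(FPKM + 1), so folds of low genes are understated, with a variance trend, over genes with a mean of at least 1 FPKM in the 6 libraries of a cell line, two-sided, called at a Benjamini-Hochberg adjusted p under 0.05. The filter takes the mean of both groups, so a gene can pass through a single group. Effects were compared between cell lines by interaction contrasts over 18 libraries, and nc levels on log2(TPM + 1). From each list the called gene with the largest rise and the largest fall per cell line was named. DHRS3, RARA, RARB, ALDH3B2, ALDH4A1, HAS2 and HAS3 were named after their values were seen. A gene that this rule names in EBC-1 is not reported here. Other lists were 5 epithelial markers, of which 3 fell in EBC-1 (1, with 1 higher, under TPM or with the trends below removed), 2 in HCC827 (1 with the trends removed) and none in PC-9, against 21.6%, 20.7% and 1.41% of all genes, and 9 markers of other cell types.

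Same-numbered nc and shSYK libraries correlated by -0.219 to 0.325, with 1 of 9 pairs over 0.1 (PC-9 replicate 2). No pairing by number was found, but with 3 libraries per group this check cannot show that there was none. No library was a copy of another (chi-square per degree of freedom 2.11 to 38.7 between replicates). Alternatives were a pseudocount of 0.1, no filter, TPM, no variance trend, a replicate block, voom on recovered reads, each library left out and, chosen after seeing the data, removal of trends on GC content (GENCODE v44) and gene length (lowess, span 0.3). Figures were drawn with matplotlib 3.10.9.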

Additional observations from a re-analysis of the deposited data

Results flagged for a closer look

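With ALDH3A1 set aside, the shSYK effect on 2 members differed between cell lines by a test of the difference itself. The fit took 18 libraries on log2(FPKM + 1), over all genes with a mean of at least 1 FPKM. For ALDH1A3 the differences were -2.28 for EBC-1 minus PC-9 (adjusted p = 1.49e-08), -1.60 for EBC-1 minus HCC827 (adjusted p = 4.23e-07) and 0.69 for PC-9 minus HCC827 (adjusted p = 0.00275). ALDH1A3 was called lower in EBC-1 and HCC827, and the PC-9 effect of -0.17 was not called. For CD24 the difference was 0.81 for EBC-1 minus PC-9 (adjusted p = 0.00701), with 3 of 3 shSYK libraries above nc in EBC-1 and overlapping groups in PC-9.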

How the results depend on the processing

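Of the 6 calls on members, all kept their direction under the 13 alternatives run and 5 passed the threshold in each. The exception was BMI1 in EBC-1, with 0.44 and an adjusted p of 0.0526 without a filter, and 0.18 (adjusted p 0.115) with the trends on GC content and length removed. Leaving out 1 library gave 0.33 to 0.50, and the adjusted p was 0.0536 without nc replicate 3 (0.40). The CD44 difference in EBC-1 was 1.56 with voom, and in HCC827 0.39 with voom and 0.23 with GC content and length trends removed. PC-9 depended most on the processing. ALDH3A1 there passed the threshold with TPM (-0.95), voom (-0.96) and GC content and length trends removed (-0.84), and ranged from -1.11 to -0.71 with 1 library left out, passing without nc replicate 1 or 2. The genes called in PC-9 numbered 253, but 47 without a filter, 490 with TPM, 480 with voom, 978 with GC content and length trends removed, and 7 to 621 with 1 library left out (621 and 503 without nc replicates 1 and 2, 24 without nc replicate 3, and 7, 16 and 20 without shSYK replicates 1, 2 and 3). With 1 library left out, uncalled differences of PC-9 changed sign, ranging from -0.037 to 0.20 for CD24 and from -0.37 to 0.19 for BMI1. Other uncalled differences near 0 did so too: the BMI1 effect for EBC-1 minus HCC827 (0.056 with TPM, -0.133 to 0.035 with 1 library left out), and on nc levels BMI1 for EBC-1 minus PC-9 (-0.057 with FPKM, -0.37 to 0.44), for EBC-1 minus HCC827 (-0.16 with FPKM) and for PC-9 minus HCC827 (-0.11 with FPKM, -0.33 to 0.48), and CD24 for PC-9 minus HCC827 (-0.32 to 0.078, and past the threshold at -0.31 with FPKM).

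TPM moved the share of higher among called genes from 51.7% to 68% in EBC-1, where the median over all genes shifted from 0.01 to 0.12, from 45.4% to 56.6% in HCC827 and from 32.4% to 25.1% in PC-9. The replicate block, though no pairing by number was found, left every member call as it was within the cell lines (BMI1 in EBC-1 0.44, adjusted p = 0.0393). Genes called with the block numbered 4326 in EBC-1 (5562 in the main fit), 172 in PC-9 (253) and 4111 in HCC827 (4554). The CD24 effect for EBC-1 minus HCC827, not called, passed under 7 of 21 alternatives, among them the block (0.52, adjusted p = 0.0237), TPM (0.90), a pseudocount of 0.1 (0.97) and 4 that left out 1 library. Read numbers limit PROM1, ALDH1A1 and, outside PC-9, ALDH3A1.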
